A study of Mus musculus with 12 samples.

Results

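The 34 genes described here encode the T cell receptor complex, the coreceptors and adhesion receptors beside it, costimulatory and checkpoint receptors, the proximal signalling proteins, lineage transcription factors and the products of effector T cells. They were chosen by name, and each symbol was found once among the 54532 genes of the count table. They comprised 8 genes of the receptor complex (Cd3d, Cd3e, Cd3g, Cd247, Trac, Trbc1, Trbc2, Trdc), 6 coreceptors and adhesion receptors (Cd4, Cd8a, Cd8b1, Cd2, Cd5, Cd6) and 6 costimulators and checkpoints (Cd28, Icos, Ctla4, Pdcd1, Lag3, Tigit). The other members were 5 signalling genes (Lck, Zap70, Lat, Lcp2, Skap1), 4 lineage factors (Foxp3, Tbx21, Gata3, Eomes) and 5 effector genes (Ifng, Gzma, Gzmb, Prf1, Nkg7).

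Total RNA of whole spinal cord had been sequenced in 12 libraries from C57BL/6 mice aged 2 to 3 months, 3 in each of 4 groups. The groups were Drd2mGFAP conditional knockout (cKO) at day 17 of experimental autoimmune encephalomyelitis (EAE), control (genotype given as wt, littermates of the cKO) at EAE day 17, cKO without disease (basal) and control without disease. In the cKO mice Drd2, which encodes the D2 receptor for dopamine, is deleted under a GFAP promoter, which in the mouse is active chiefly in astrocytes, and the series title places the question in inflammation of the central nervous system and astrocytic DRD2. EAE is an autoimmune attack on myelin used to model multiple sclerosis, and the series calls the time sampled its peak.

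T cells recognise peptides on MHC molecules through an antigen receptor whose alpha and beta (or gamma and delta) chains sit in a complex with CD3 and CD247. The kinase LCK, brought in by the coreceptors CD4 or CD8, phosphorylates that complex, ZAP70 binds to it, and LAT and LCP2 relay the signal. CD28 and ICOS add to this signal while CTLA4, PD-1, LAG3 and TIGIT restrain it. In EAE, CD4 T cells specific for myelin start the disease, CD8 T cells and regulatory T cells also enter the cord, and a healthy cord holds few T cells.

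Before the results, some facts of the libraries bear on them. The library cKO EAE 3 stood apart from the other 5 EAE libraries: it had 0 counts of 14 members, and 31 of the 34 were at or below the highest basal library, the exceptions being Ctla4, Pdcd1 and Lcp2. The library cKO basal 2 also stood apart, with 17220 genes detected against 24303 to 26056 in the other libraries. Counts of called genes and ratio differences between the EAE groups are given with and without cKO EAE 3. Drd2 was at 6.73, 12.5 and 19.4 CPM (counts scaled to a common library size, TMM-normalised) in cKO EAE 1, 2 and 3, at 8.89, 8.998 and 9.62 in control EAE, at 17.6, 33.4 and 34.7 in cKO basal and at 26.5, 19.4 and 19.7 CPM in control basal. It was thus not lower in the cKO groups, and whole cord does not test a deletion in a single cell type. Xist was counted 0 to 5 times in the EAE libraries and 4682 to 12636 times in the basal ones, whereas the Y-linked Ddx3y had 1177 to 1295 counts in the EAE libraries and 0 in the basal ones, so disease and sex cannot be told apart in any comparison of EAE with basal. The labelled tissue was borne out by summed neuron markers of 1936 to 7014 CPM and summed astrocyte markers of 1687 to 4168 CPM. In whole tissue, fewer T cells and less RNA per cell cannot be told apart.

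The constant regions of the beta chain show how far the receptor genes can be counted apart. Trbc1 (chr6:41538218-41539881, plus strand, build mm10) and Trbc2 (chr6:41546730-41548352, plus strand) are alternative constant genes, and a T cell uses one of them. Their coding sequences, taken from GENCODE M21, were both 521 bases long, were 95.6% identical and differed at 23 bases. The initial 259 bases were the same in both, so that reads inside them fit both genes, and how such reads were counted is not given in the sources used here. Positions 251 to 521 of each are shown with the differing bases in capitals, 1 base at position 260 and the others from position 383 on.
Trbc1: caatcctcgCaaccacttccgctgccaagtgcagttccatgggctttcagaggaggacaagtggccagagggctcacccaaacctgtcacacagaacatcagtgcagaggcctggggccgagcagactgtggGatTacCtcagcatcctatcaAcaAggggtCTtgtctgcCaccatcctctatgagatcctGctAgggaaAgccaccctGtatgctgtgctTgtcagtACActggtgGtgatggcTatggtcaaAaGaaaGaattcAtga
Trbc2: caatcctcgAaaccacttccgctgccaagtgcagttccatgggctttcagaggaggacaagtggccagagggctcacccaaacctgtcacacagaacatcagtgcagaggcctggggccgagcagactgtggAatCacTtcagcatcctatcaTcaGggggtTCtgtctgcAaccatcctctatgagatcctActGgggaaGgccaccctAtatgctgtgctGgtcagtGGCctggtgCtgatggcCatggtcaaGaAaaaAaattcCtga

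Promoters were compared because the members moved together across libraries. For 22 of the 34 members a promoter window was found in RefSeq (GRCm38.p6, 250 bases before to 50 after the start). Cd3g and Cd3d, whose starts lie 1355 bases apart on opposite strands, and the effector genes Ifng and Gzmb are shown, with motif matches in capitals. The windows are Cd3g at chr9:44980382-44980681 (minus strand), Cd3d at chr9:44981536-44981835 (plus strand), Ifng at chr10:118440796-118441095 (plus strand) and Gzmb at chr14:56262285-56262584 (minus strand), each printed on the strand of its gene.
Cd3g: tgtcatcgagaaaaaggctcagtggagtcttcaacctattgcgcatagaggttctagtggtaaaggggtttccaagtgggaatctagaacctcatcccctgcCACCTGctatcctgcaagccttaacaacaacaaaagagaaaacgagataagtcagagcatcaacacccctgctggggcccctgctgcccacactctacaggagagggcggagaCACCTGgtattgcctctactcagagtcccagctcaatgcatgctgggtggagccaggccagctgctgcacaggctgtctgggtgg
Cd3d: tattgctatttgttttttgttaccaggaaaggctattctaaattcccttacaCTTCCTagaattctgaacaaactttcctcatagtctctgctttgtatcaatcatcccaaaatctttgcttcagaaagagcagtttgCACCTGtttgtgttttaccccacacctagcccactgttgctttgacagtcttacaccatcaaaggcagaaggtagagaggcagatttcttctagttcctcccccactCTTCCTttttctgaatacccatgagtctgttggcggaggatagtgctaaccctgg
Ifng: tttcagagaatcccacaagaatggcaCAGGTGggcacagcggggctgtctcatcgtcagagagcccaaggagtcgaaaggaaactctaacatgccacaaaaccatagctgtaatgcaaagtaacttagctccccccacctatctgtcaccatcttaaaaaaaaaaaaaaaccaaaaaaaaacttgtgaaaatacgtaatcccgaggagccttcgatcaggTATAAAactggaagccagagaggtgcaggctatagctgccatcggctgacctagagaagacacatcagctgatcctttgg
Gzmb: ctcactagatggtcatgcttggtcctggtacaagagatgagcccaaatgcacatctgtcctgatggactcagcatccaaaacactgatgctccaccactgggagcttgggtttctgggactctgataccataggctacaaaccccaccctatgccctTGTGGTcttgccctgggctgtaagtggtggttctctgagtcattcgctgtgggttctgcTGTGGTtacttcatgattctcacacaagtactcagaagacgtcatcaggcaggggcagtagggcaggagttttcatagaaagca

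Short motifs were searched on both strands of these windows. A single window was kept per gene, the one farthest upstream, and the set of all windows left out a chromosome. The E-box letters CAGGTG were in 12 of the 22 member windows (54.5%) and in 20.05% of all 27025 windows. The ETS letters AGGAAG were in 13 member windows (59.1%) against 35.1% of all windows. The Runx letters TGTGGT were in 7 member windows (31.8%) against 16.9% of all. The NFAT letters GGAAAA, which can overlap an ETS match, were in 22.7% of member windows against 23.6% of all. The promoter box TATAAA was in 13.6% of member windows against 14.2% of all. The Cd3g and Cd3d windows held E-boxes, and the Cd3d window also held ETS letters 198 and 5 bases before the start. The Gzmb window held a pair of Runx matches at 93 and 34 bases before the start, and the Ifng window a promoter box at 30 bases before it. Distances are from the start of the window kept, which for Gzmb lies upstream of the gene start in the count table (56262260). These matches describe letters and show no binding.

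In control mice, EAE spinal cord held more RNA of the members than basal cord, at levels in EAE that differed widely between genes. Lcp2, Lag3 and Cd4 led with means of 59.2, 42.6 and 25.6 CPM in control EAE. Trdc, Eomes and Prf1 had means of 1.01, 1.01 and 0.933 CPM there. Summed over the 34 genes, the level was 316 to 361 CPM in control EAE and 14.9 to 15.9 CPM in control basal. Of the 34 members, 29 were higher in control EAE than in control basal (edgeR's quasi-likelihood F test, Benjamini-Hochberg adjusted p below 0.05), against 12.1% of the 18601 genes tested that were called higher. The members tested had a median log2 fold change of 5.97, or 5.46 with the genes at 0 basal counts set to their bounds, beside -0.01 for all genes tested. Trdc, Skap1 and Gata3 did not pass (adjusted p = 0.053, 0.10 and 0.078), and Eomes and Prf1 were left out by the filter on low counts. All 34 members passed without cKO EAE 3 and cKO basal 2, libraries that enter the shared estimate of spread, at a background of 24.9% called higher. The count was 15, 15 and 14 without control basal 1, 2 and 3. In those fits 1936 of 19129, 1752 of 19101 and 1724 of 19078 genes tested were called in either direction. On all libraries DESeq2 and voom each called all 32 members tested higher, Trdc, Skap1 and Gata3 among them. They called 4483 and 11120 of the 18601 genes tested, in either direction.

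**Figure D1:**
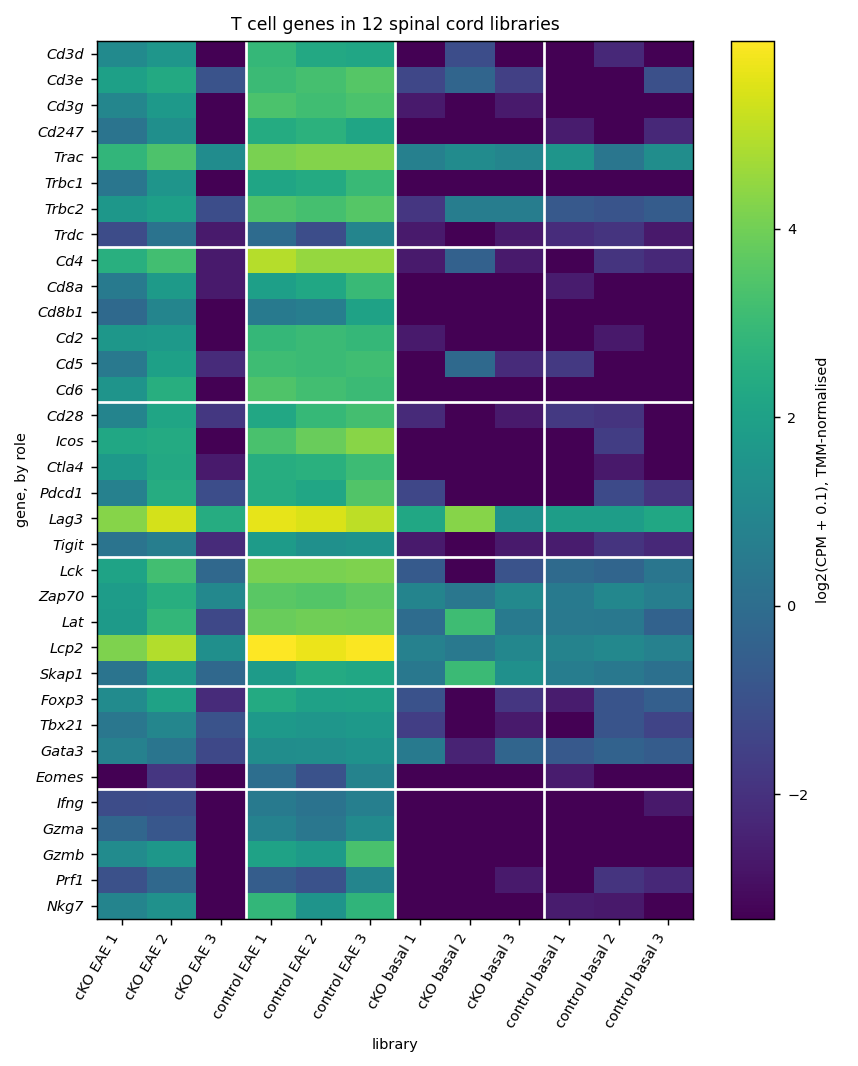
Level of each of the 34 genes (rows, grouped by role) in each of the 12 libraries (columns), as log2 of TMM-normalised CPM plus 0.1. The 3 control EAE libraries are bright for most genes, but Trdc, Eomes and Prf1 are low there too (0.355, 0.414 and 0.414 CPM in control EAE 2). Libraries cKO EAE 1 and 2 are intermediate for most genes, and cKO EAE 3 resembles the 6 basal libraries, with 14 genes at 0 counts.

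The CD3 chains of the receptor complex came close to absence without disease. Cd3e, the epsilon chain of CD3, had 67, 82 and 7 counts in cKO EAE 1, 2 and 3, 141, 157 and 198 in control EAE, 5, 8 and 4 in cKO basal and 0, 0 and 7 in control basal. Cd3g, the gamma chain, had 32, 53 and 0 counts in cKO EAE, 178, 146 and 172 in control EAE, 1, 0 and 1 in cKO basal and 0 in every control basal library. For both, the control EAE libraries were the highest of the 12, and cKO EAE 3 lay within the basal range. Cd3e was 6.11 log2 units higher in control EAE than in control basal (SE 1.15, adjusted p = 0.0053), and Cd3g was at least 167-fold higher against a floor of 3 counts over the basal group. Cd3d, the delta chain, was 143-fold higher on 2 basal counts (exact Poisson 95% interval 39.7 to 1183, counting error only).

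The antigen-binding chains differed in how much was counted at rest. Trac, the constant gene of the alpha chain, had 119, 173 and 36 counts in cKO EAE, 298, 328 and 333 in control EAE, 27, 24 and 30 in cKO basal and 44, 21 and 41 in control basal. It was the member of the receptor complex with the most basal counts, and its rise in control EAE was 3.17 log2 units (SE 0.52, adjusted p = 0.0033). Trbc1 had 20, 47 and 0 counts in cKO EAE, 75, 87 and 134 in control EAE and 0 in all 6 basal libraries, so it was at least 99.8-fold higher in control EAE. Trbc2 was 4.37 log2 units higher (SE 0.84, adjusted p = 0.0059), on 157 to 199 counts in control EAE and 8 to 10 in control basal. Trdc, the constant gene of the delta chain of gamma delta T cells, had 6, 18 and 1 counts in cKO EAE, 15, 6 and 31 in control EAE, 1, 0 and 1 in cKO basal and 2, 3 and 1 in control basal. Its EAE groups overlapped. It passed in control EAE against control basal by edgeR without cKO EAE 3 and cKO basal 2 (log2 3.06, SE 0.76, adjusted p = 0.0057) and not with them. Tcrg-C1, a constant gene of the gamma chain that is no member, had 9, 16 and 0 counts in cKO EAE, 10, 15 and 18 in control EAE and 0 in every basal library.

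Cd4 carried the clearest contrast among the coreceptors. This coreceptor for MHC class II, also present on some macrophages and dendritic cells, had 101, 151 and 1 counts in cKO EAE, 536, 387 and 394 in control EAE, 1, 7 and 1 in cKO basal and 0, 3 and 2 in control basal. It was 7.96 log2 units higher in control EAE than in control basal (SE 1.46, adjusted p = 0.0049). Cd8a, a chain of the coreceptor for MHC class I, had 23, 55 and 1 counts in cKO EAE, 64, 77 and 136 in control EAE, 0 in every cKO basal library and 1, 0 and 0 in control basal. Every library of cKO EAE lay below every library of control EAE for Cd4 and Cd8a. Its partner Cd8b1 was at 0 in all basal libraries and at least 39.7-fold higher in control EAE. Cd2, the receptor of CD48 in the mouse, was 390-fold higher on 1 basal count (interval 70.1 to 15418), and Cd6, a scavenger receptor family protein of T cells, at least 160-fold. Cd5, a close relative of Cd6 that dampens receptor signalling, was 6.98 log2 units higher (SE 1.49, adjusted p = 0.0095).

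All 6 costimulators and checkpoints rose in control EAE, and Lag3 had the most counts at rest. Icos, an inducible costimulator of activated and follicular helper T cells, had 80, 86 and 0 counts in cKO EAE, 172, 248 and 343 in control EAE, 0 in cKO basal and 0, 4 and 0 in control basal. Lag3, an inhibitory receptor that binds MHC class II, had 343, 704 and 89 counts in cKO EAE, 866, 750 and 574 in control EAE, 79, 214 and 44 in cKO basal and 56, 64 and 83 in control basal. Icos thus separated cKO EAE from control EAE in every library, while Lag3 in cKO EAE 2 lay inside the control EAE range. The rise in control EAE was 7.47 log2 units for Icos (SE 1.62, adjusted p = 0.014) and 3.45 for Lag3 (SE 0.82, adjusted p = 0.015). Ctla4, a competitor of CD28 for its ligands, was 343-fold higher on 1 basal count (interval 61.5 to 13536). Cd28, Pdcd1 (PD-1) and Tigit were 5.83, 5.29 and 4.54 log2 units higher in control EAE (SE 1.11, 1.21 and 0.80, adjusted p = 0.0057, 0.013 and 0.0043).

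Of the signalling genes, Lck, Zap70, Lat and Lcp2 rose in control EAE by edgeR and Skap1 did not pass by that test. Zap70, the kinase that binds the phosphorylated receptor, had 60, 95 and 32 counts in cKO EAE, 209, 188 and 222 in control EAE, 30, 13 and 33 in cKO basal and 21, 34 and 27 in control basal. Lcp2, the adaptor SLP-76 that myeloid cells also use, had 314, 503 and 39 counts in cKO EAE, 1106, 885 and 1051 in control EAE, 28, 14 and 32 in cKO basal and 27, 35 and 29 in control basal. Both had narrow spread among the control EAE libraries, with no overlap with any other group. They rose by 2.93 log2 units (Zap70, SE 0.40) and 5.07 log2 units (Lcp2, SE 0.72) in control EAE, each with an adjusted p of 0.0032. Lck rose by 4.27 log2 units (SE 0.83, adjusted p = 0.0062) and the membrane adaptor Lat by 3.84 (SE 1.04, adjusted p = 0.028). Skap1, an adaptor that links the receptor to integrin adhesion, had 19, 51 and 13 counts in cKO EAE, 58, 85 and 79 in control EAE, 21, 88 and 41 in cKO basal and 23, 22 and 18 in control basal. Its highest count was in cKO basal 2, a library in which Lat also reached 94 counts against 12 to 22 in the other basal libraries.

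The lineage factors differed in how far EAE and basal libraries lay apart. Foxp3, which defines regulatory T cells, had 38, 68 and 2 counts in cKO EAE, 89, 66 and 69 in control EAE, 7, 0 and 3 in cKO basal and 1, 8 and 11 in control basal. It rose in control EAE by 3.51 log2 units (SE 1.05, adjusted p = 0.041), and cKO EAE 2 lay within the control EAE range. In the annotation Foxp3 (362 counts over all libraries) overlaps Flicr (165) on the same strand, and Gm36995 (93) and Ccdc22 (11) on the opposite strand. Strand cannot separate reads shared with Flicr. Without a stated strand setting, reads of Gm36995 and Ccdc22 cannot be told apart from those of Foxp3 either. Tbx21, the T-bet factor of Th1 and cytotoxic cells, rose in control EAE by 3.60 log2 units (SE 0.87, adjusted p = 0.017). Gata3, the Th2 factor, had 28, 19 and 5 counts in cKO EAE, 39, 39 and 44 in control EAE, 23, 1 and 12 in cKO basal and 8, 12 and 10 in control basal, the smallest contrast of the 4 factors. Eomes, a factor of cytotoxic and memory cells, had 0, 3 and 0 counts in cKO EAE, 16, 7 and 29 in control EAE, 0 in cKO basal and 1, 0 and 0 in control basal.

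Effector genes were at or near 0 in all basal libraries. Ifng, the cytokine of Th1 and CD8 cells, had 6, 6 and 0 counts in cKO EAE, 23, 18 and 26 in control EAE, 0 in cKO basal and 0, 0 and 1 in control basal. Gzmb, a protease that kills target cells, had 38, 49 and 0 counts in cKO EAE, 70, 56 and 171 in control EAE and 0 in every basal library. Neither gene overlapped between cKO EAE and control EAE. Ifng was 67.7-fold higher in control EAE than in control basal on 1 basal count (interval 12.1 to 2672). Against 0 basal counts, Gzma, another granzyme, was at least 28.6-fold higher. Prf1, which forms the pores through which granzymes enter, had 7, 13 and 0 counts in cKO EAE, 10, 7 and 31 in control EAE, 0, 0 and 1 in cKO basal and 0, 3 and 2 in control basal, so that its EAE groups overlapped. Nkg7, a granule protein of cytotoxic and NK cells, was 144-fold higher in control EAE on 2 basal counts (interval 39.7 to 1185).

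Levels can be set against each other only per length. In control EAE, Lag3 (20.2 ± 3.98 CPM per kb, SD, n = 3) and Trac (19.97 ± 1.37) were highest and did not differ beyond their spread. Trbc2 (15.2 ± 1.68) and Lcp2 (13.3 ± 1.35) followed, with means further apart than either SD and no test between them. Cd4 was at 6.35 ± 1.14 and Cd8a at 1.48 ± 0.616 CPM per kb. The lowest were Prf1 (0.361 ± 0.295), Trdc (0.261 ± 0.191) and Eomes (0.243 ± 0.155), whose order is within their spread.

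In cKO mice the same contrast gave a different number of calls in the same fit. None of the 34 members was called in cKO EAE against cKO basal by edgeR, where 0.0323% of all genes tested were called higher, although 26 members had an unadjusted p below 0.05. DESeq2's Wald test called 22 and limma voom with sample weights called 22. These tools called 1239 and 3648 of the 18601 genes tested, in either direction. Library cKO EAE 3 had been set apart by its low values of these same members, so leaving it out favours calls among them. Counts without it are therefore no independent test of their rise in cKO mice. Without cKO EAE 3 the count was 24 (background 5.4%), and without both cKO EAE 3 and cKO basal 2 it was 29 (background 10.8%). In that fit Cd4 was 6.80 log2 units higher in cKO EAE than in cKO basal (SE 0.56, adjusted p = 4.8e-06), Lcp2 3.75 (SE 0.27, adjusted p = 1.9e-06) and Lag3 3.08 (SE 0.37, adjusted p = 8.3e-05). The 5 members that did not pass were Trdc, Skap1, Gata3, Eomes and Prf1 (adjusted p = 0.058, 0.88, 0.59, 0.39 and 0.067). Skap1 had 0.16 log2 units of difference in this fit (SE 0.48), on 19 and 51 counts in cKO EAE 1 and 2 against 21 and 41 in cKO basal 1 and 3.

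**Figure D2:**
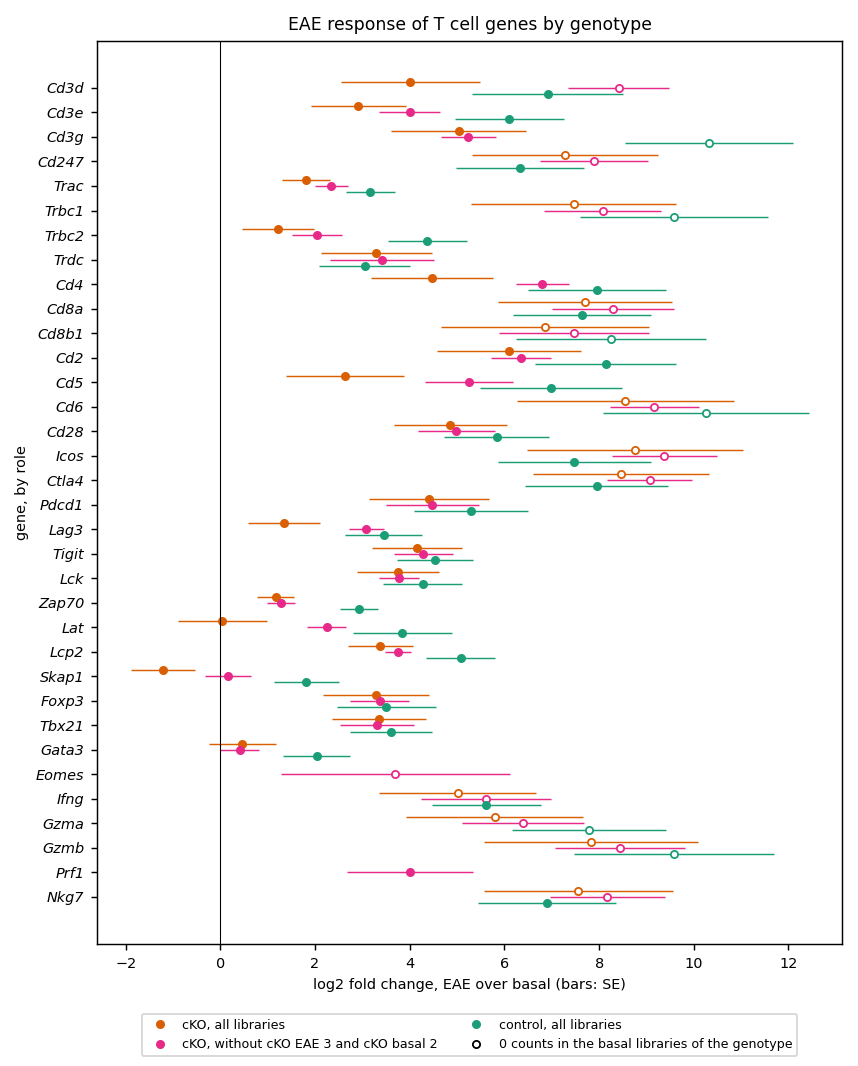
Log2 fold change of each of the 34 genes, EAE over basal, in cKO mice (all libraries, and without cKO EAE 3 and cKO basal 2) and in control mice, with bars for the SE. Open points are genes with 0 counts in the basal libraries of that genotype, whose fitted values depend on the prior count. Nearly all points lie right of 0, and Skap1 in cKO mice is at -1.22 with all libraries and at 0.16 without those libraries.

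A test of the difference between the EAE responses of the genotypes called none of the 34 members. In edgeR's fit of all 12 libraries 4 members had an unadjusted p below 0.05, with 0% of all genes called: Trbc2, Zap70, Lat and Skap1. The response of Zap70 was 1.77 log2 units smaller in cKO mice (difference -1.77, SE 0.54, adjusted p = 0.55) and that of Skap1 differed by -3.04 (SE 0.96, adjusted p = 0.55). DESeq2 called 0 members and 77 of the 18601 genes tested. Voom called 2999 of the 18601 genes tested and 2 of the 32 members tested. These were Skap1 (difference -2.38, adjusted p = 0.012) and Zap70 (difference -1.83, adjusted p = 0.0087), so voom did not single out the members. Without cKO EAE 3 and cKO basal 2, edgeR called 0, with 7 at an unadjusted p below 0.05. A member called in control mice and not in cKO mice is therefore not shown to respond differently.

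At EAE, cKO cord carried less RNA of most members than control cord in these libraries, and the test on all 6 EAE libraries called 1 of them. The lone gene was Zap70, with 3.70 ± 1.88 CPM in cKO EAE and 12.04 ± 0.908 CPM in control EAE (SD, n = 3 each), a log2 fold change of -1.67 (SE 0.35, adjusted p = 0.047). The background of genes called lower was 1.54%, and 16 members had an unadjusted p below 0.05. The tested members had a median log2 fold change of -1.72, beside -0.00 for all genes. Without cKO EAE 3 edgeR called 18 members lower, at a background of 9.1%. On all 6 libraries DESeq2 and voom called 8 and 17 of the 32 members tested, all lower. They called 4131 and 5790 of the 17914 genes tested, in either direction. The edgeR count was 0 without cKO EAE 1, 9 without cKO EAE 2 (3418 of 18363 genes called in either direction) and 0 without each control EAE library in turn, so 1 library changes it in either direction.

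The libraries of the genotypes did not overlap for 28 of the 34 members, all lower in cKO EAE, where 26.7% of all genes tested did not overlap in that direction. No member was without overlap in the higher direction, against 21.2% of all genes. The 6 members that overlapped were Trdc, Cd8b1, Pdcd1, Lag3, Foxp3 and Prf1. Since cKO EAE 3 was not the highest cKO EAE library for any member, leaving it out cannot change this count. Relative to the control EAE mean of each gene, cKO EAE 1 had a median of 30.7% over the 34 genes (range 0 to 67.8%), cKO EAE 2 a median of 50.9% (range 17.8 to 107%) and cKO EAE 3 a median of 1.29% (range 0 to 18.3%). For most genes cKO EAE 2 thus lay above cKO EAE 1 and cKO EAE 3 lowest.

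**Figure D3:**
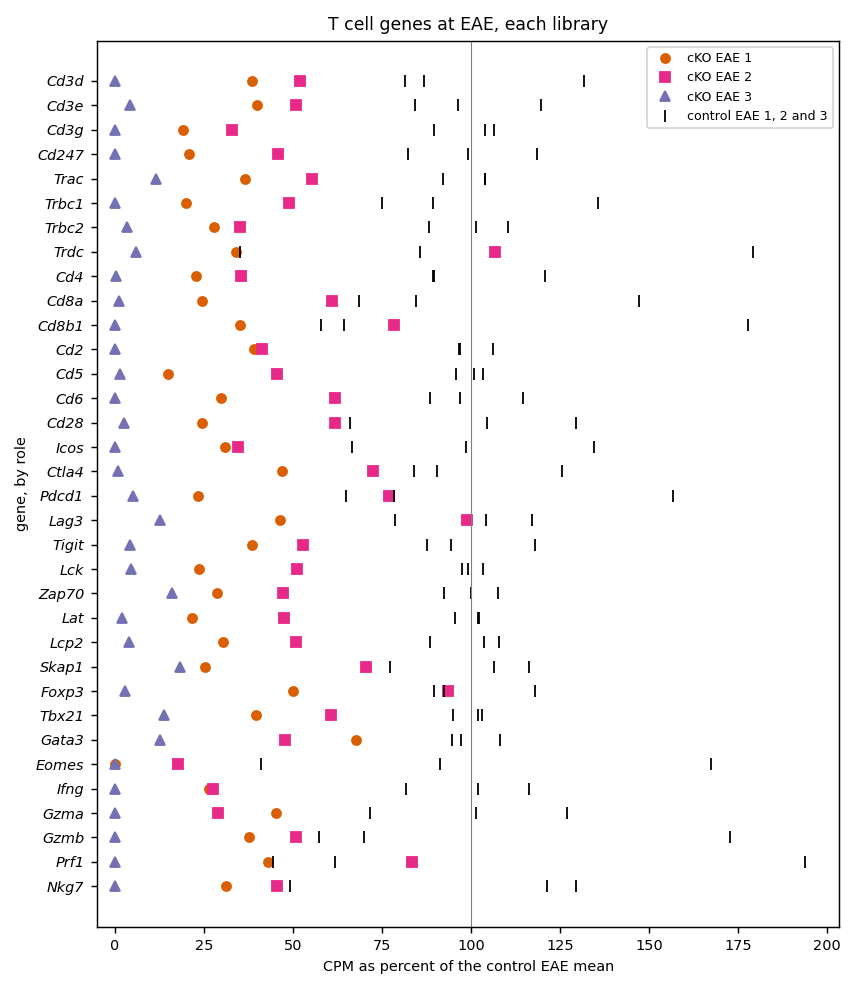
CPM of each of the 34 genes in cKO EAE 1, 2 and 3, as a percentage of the mean of the 3 control EAE libraries, which are drawn as ticks. Foxp3 and Lag3 in cKO EAE 2 reach 93.5% and 99.0%, Cd3g and Cd4 stay at 32.9% and 35.3%, and cKO EAE 3 lies near 0 for most genes.

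The members called lower without cKO EAE 3 fell unevenly over the roles. Of the receptor complex 7 of 8 fell, all but Trdc. Cd3g fell by 1.91 log2 units (SE 0.25, adjusted p = 0.015), Trbc2 by 1.62 (SE 0.20, adjusted p = 0.015) and Trac by 1.08 (SE 0.19, adjusted p = 0.015). Of the coreceptors and adhesion receptors Cd4, Cd2, Cd5 and Cd6 fell, with Cd4 at -1.75 (SE 0.22, adjusted p = 0.015). Cd8a was at -1.19 (SE 0.45, adjusted p = 0.10) and Cd8b1 at -0.79 (SE 0.58, adjusted p = 0.39), so neither passed. Among signalling genes Lck, Zap70, Lat and Lcp2 fell by at least 1.26 log2 units, and Skap1 was at -1.03 (SE 0.41, adjusted p = 0.12).

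Costimulators and checkpoints were split. Icos fell by 1.57 log2 units (SE 0.29, adjusted p = 0.017) and Tigit by 1.09 (SE 0.31, adjusted p = 0.044) in cKO EAE 1 and 2 against control EAE. Lag3 was at -0.43 (SE 0.29, adjusted p = 0.33), Ctla4 at -0.71 (SE 0.27, adjusted p = 0.11), Pdcd1 at -0.97 (SE 0.52, adjusted p = 0.23) and Cd28 at -1.18 (SE 0.41, adjusted p = 0.083). None of the 4 lineage factors passed: Foxp3 was at -0.44 (SE 0.30, adjusted p = 0.34) and Tbx21 at -0.96 (SE 0.29, adjusted p = 0.055). Ifng was the effector gene that fell, by 1.83 log2 units (SE 0.43, adjusted p = 0.026), while Gzma was at -1.37 (SE 0.43, adjusted p = 0.061) and Gzmb at -1.14 (SE 0.49, adjusted p = 0.14). With 2 libraries against 3, a gene that missed the threshold is not shown to be equal between the genotypes.

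Ratios between members describe the composition of the T cell signal. A ratio still depends on the amount of that signal where a member is also counted in basal cord, as Lag3 was. All were taken on CPM per kb of gene length. Of 6 ratios compared, 5 used all 6 EAE libraries and the effector ratio left out cKO EAE 3, whose effector counts were 0. In a two-sided exact permutation test of log2 ratios the smallest p is 0.1 for 3 libraries against 3 and for 2 against 3, so none could pass and none did. Foxp3 over the summed Cd3 genes (Cd3d, Cd3e, Cd3g) was 0.204, 0.272 and 0.292 in cKO EAE and 0.141, 0.129 and 0.120 in control EAE (difference 0.96 log2 units, exact p = 0.1, adjusted over the 6 ratios 0.3), and the difference was 0.86 without cKO EAE 3 (exact p = 0.1). All 3 cKO libraries were above all 3 control libraries, but cKO EAE 3 had 2 Foxp3 counts. Over Cd2, Cd5 and Cd6 in place of the Cd3 genes, a denominator chosen after these values were seen, the ratio was 0.176, 0.192 and 0.519 in cKO EAE and 0.113, 0.0882 and 0.0935 in control EAE. The value of cKO EAE 3 there is 2 Foxp3 counts over 2 counts of Cd5 and 0 of Cd2 and Cd6. Without that library the difference was 0.91 log2 units (exact p = 0.1).

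The checkpoint sum of the next ratio held the costimulator Icos beside Ctla4, Pdcd1, Lag3 and Tigit. This sum over Cd3 was at 5.24, 7.43 and 27.9 in cKO EAE and at 3.87, 4.35 and 4.04 in control EAE (difference 1.33, exact p = 0.1, adjusted 0.3). Without cKO EAE 3 the difference was 0.61 (exact p = 0.1), less than that with it by over 1.5 times. The cKO libraries were all above the control ones. Without Lag3 the ratio was 1.75, 2.11 and 3.33 in cKO EAE and 1.28, 1.57 and 2.14 in control EAE, where the libraries overlapped (difference 0.51, exact p = 0.3, and 0.24 without cKO EAE 3, exact p = 0.5). The value of cKO EAE 3 rests on 7 Cd3 counts, against 136 and 183 in cKO EAE 1 and 2 and 384 to 447 in control EAE. Of the 98 counts in its full checkpoint sum, 89 were Lag3. Its Lag3 level of 5.41 CPM lay within the basal range of 2.62 to 19.5 CPM. The effector genes over Cd3 were at 1.71, 1.56 and 0 in cKO EAE and at 1.48, 0.985 and 2.18 in control EAE, where the libraries overlapped (difference 0.15 without cKO EAE 3, exact p = 0.7).

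**Figure D4:**
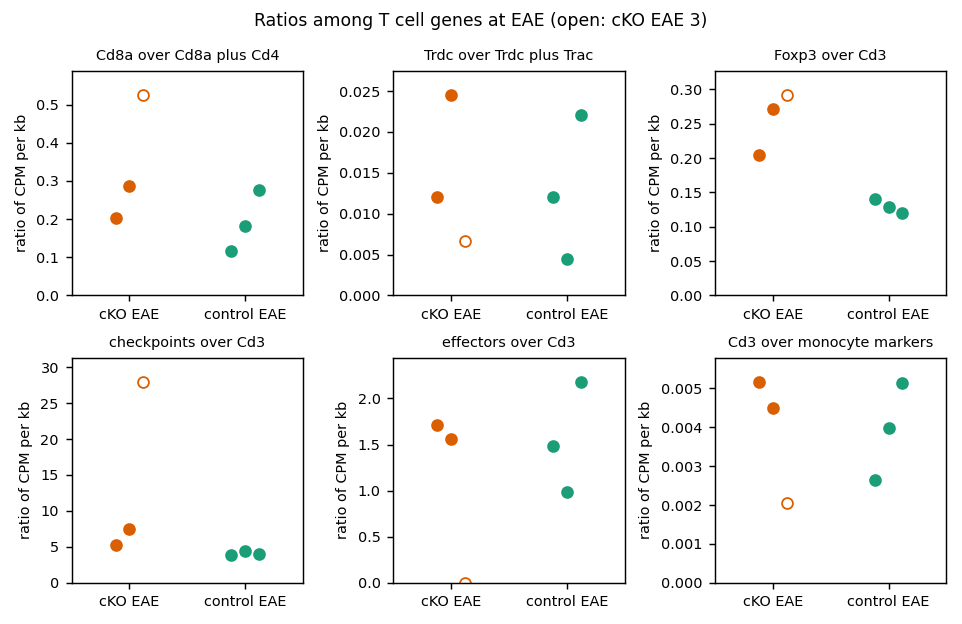
Ratios of summed CPM per kb between members, and of Cd3 to monocyte markers, in each cKO EAE and control EAE library, with cKO EAE 3 drawn open. Foxp3 over Cd3 and checkpoints (with Icos) over Cd3 are higher in all cKO libraries than in all control libraries, and the other ratios overlap.

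Cd8a over the sum of Cd8a and Cd4 was 0.202, 0.288 and 0.526 in cKO EAE and 0.117, 0.181 and 0.277 in control EAE (difference 0.79, exact p = 0.2, adjusted 0.4, and 0.42 without cKO EAE 3, exact p = 0.4). In counts, Cd8a made up 18.5% of 124 in cKO EAE 1 (exact Clopper-Pearson 95% interval 12.1 to 26.5%), 26.7% of 206 in cKO EAE 2 and 1 of 2 counts in cKO EAE 3, against 10.7% of 600, 16.6% of 464 and 25.7% of 530 in control EAE. Control EAE 3 lay within the cKO range, so the groups overlapped. Trdc over the sum of Trdc and Trac was 0.0121, 0.0246 and 0.00668 in cKO EAE and 0.0120, 0.00441 and 0.0220 in control EAE (difference 0.25, exact p = 0.7, and 0.71 without cKO EAE 3, exact p = 0.4), again with overlap.

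Without disease the genotypes could be compared for few members. After the filter on low counts 8 of the 34 were tested in cKO basal against control basal, and none was called by edgeR (0% of all genes called, 0 members at an unadjusted p below 0.05, both also 0 without cKO basal 2). DESeq2 called 0, with 1 at an unadjusted p below 0.05, and voom called 0. Trac was at 1.85 ± 0.311 CPM in cKO basal and 2.07 ± 0.835 CPM in control basal (SD, n = 3 each), a log2 fold change of -0.16 (SE 0.47). Zap70 was at 1.63 ± 0.405 CPM in cKO basal and 1.57 ± 0.279 CPM in control basal. The wider values of Lag3 (8.90 ± 9.21 CPM in cKO basal and 3.89 ± 0.599 CPM in control basal) and Skap1 (3.89 ± 3.62 CPM in cKO basal and 1.22 ± 0.234 CPM in control basal) carried the high counts of cKO basal 2. A gene at 0 in 3 basal libraries is limited only to under 3 counts over the group.

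The variable segments of the receptor loci, which the choice of members did not use, gave a further readout of the antigen receptor. Each T cell clone transcribes its own rearranged V segments, so counts spread over many segments when many clones are present. Over 144 V segments there were 43, 84 and 15 counts in cKO EAE, 136, 141 and 184 in control EAE, 29, 0 and 8 in cKO basal and 19, 29 and 13 in control basal. The segments with any count numbered 19, 36 and 8 in cKO EAE, 47, 45 and 53 in control EAE, 11, 0 and 3 in cKO basal and 8, 12 and 8 in control basal. The number of segments seen rises with the number of counts, so it does not measure diversity here.

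The beta chain segments had almost no basal counts. They had 13, 38 and 2 counts in cKO EAE, 79, 74 and 92 in control EAE, 5, 0 and 6 in cKO basal and 0, 1 and 1 in control basal. The alpha chain segments had 7 to 20 counts in control basal and 44 to 67 in control EAE, and Trav9n-4 had 10, 7 and 2 of the control basal ones. Trbv13-2, the beta segment with the most counts and one known from myelin-reactive CD4 clones of mice, had 3, 2 and 0 counts in cKO EAE, 25, 18 and 6 in control EAE, 0, 0 and 3 in cKO basal and 0, 1 and 0 in control basal. Trbv16 had 23 counts in control EAE 3 against 0 to 3 in the other EAE libraries, so single libraries led different segments. Across the 144 segments 94 had any count, 72 had counts in EAE and no basal count, and 9 had counts in all EAE libraries other than cKO EAE 3.

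**Figure D5:**
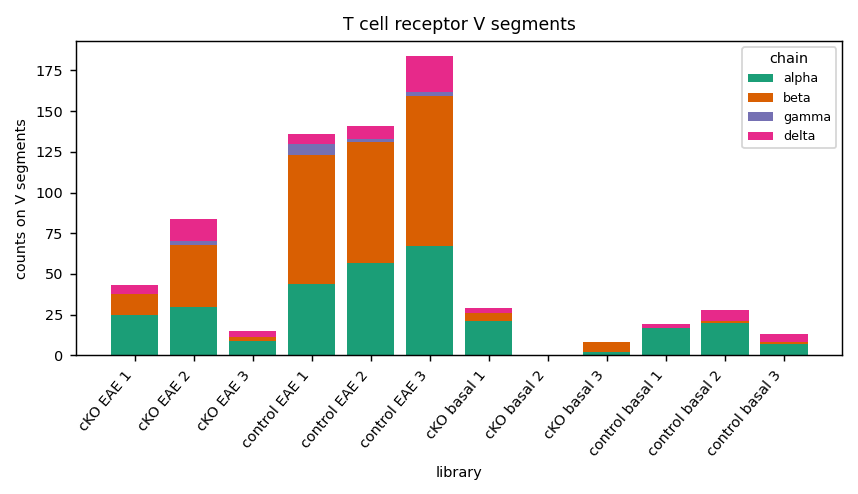
Counts on T cell receptor V segments in each of the 12 libraries, stacked by chain. Beta segment counts are 74 to 92 in control EAE, 2 to 38 in cKO EAE and 0 to 6 in the basal libraries.

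Other genes of T cell signalling followed the members in control EAE and, without cKO EAE 3, in the comparison of genotypes. Of 28 further signalling genes 19 rose in control EAE against control basal, none passed in cKO EAE against cKO basal (19 without cKO EAE 3 and cKO basal 2), and 2 fell in cKO EAE against control EAE (17 without cKO EAE 3). The 2 that fell on all 6 libraries, named after their values were seen, were Malt1 (log2 -1.25, SE 0.27, adjusted p = 0.047), a protease of the receptor signal, and the adaptor Trat1 (log2 -2.11, SE 0.38, adjusted p = 0.044). Ptprc, the phosphatase CD45 of all leukocytes, rose in control EAE by 5.68 log2 units (SE 0.87, adjusted p = 0.0032) and fell without cKO EAE 3 by 1.18 log2 units in cKO EAE against control EAE (SE 0.20, adjusted p = 0.015), but was not called with it (log2 -1.72, SE 0.85, adjusted p = 0.19). Nfatc1, a transcription factor downstream of calcium, rose in control EAE by 2.74 log2 units (SE 0.44, adjusted p = 0.0032). Rises are read against the 12.1% of genes called higher in control EAE, and falls against the 1.54% called lower in cKO EAE on all 6 libraries and the 9.1% without cKO EAE 3.

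Of 18 further checkpoint and costimulatory receptors 14 rose in control EAE and 12 fell in cKO EAE against control EAE without cKO EAE 3 (1 with it, Tnfrsf18, log2 -0.96, SE 0.20, adjusted p = 0.046, named after its value was seen). Entpd1 (CD39), which breaks down extracellular ATP, rose by 3.14 log2 units (SE 0.48, adjusted p = 0.0032), and Cd244a, a receptor of NK and cytotoxic T cells, by 7.46 (SE 1.16, adjusted p = 0.0032). Of 13 ligands 9 rose, and 7 fell in cKO EAE without cKO EAE 3 (0 with it by edgeR). The CD28 ligands Cd80 and Cd86 were 2.92 (SE 0.36) and 4.98 log2 units (SE 0.81) higher in control EAE, with adjusted p = 0.0032 and 0.0033. They were at 3.35 ± 1.30 and 12.2 ± 10.2 CPM in cKO EAE and at 8.02 ± 1.13 and 37.8 ± 4.59 CPM in control EAE (SD, n = 3 each).

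Of 28 helper T cell factors and cytokines 21 were tested and 13 rose in control EAE, and 8 fell in cKO EAE without cKO EAE 3 (0 with it by edgeR). Il7r, the receptor of interleukin 7, rose by 5.97 log2 units (SE 0.98, adjusted p = 0.0034), and Il2rb, a chain of the receptors of interleukins 2 and 15, by 6.87 (SE 1.32, adjusted p = 0.0059). Il17a, the cytokine of Th17 cells, named after its values were seen, had 4, 11 and 0 counts in cKO EAE, 6, 16 and 40 in control EAE and 0 in all basal libraries, so cKO EAE and control EAE overlapped. Of 16 further cytotoxic genes 7 were tested and 5 rose, and 4 fell in cKO EAE without cKO EAE 3 (1 with it, the death ligand Tnfsf10, log2 -0.83, SE 0.17, adjusted p = 0.044, named after its value was seen). Ctsw, a protease of cytotoxic lymphocytes, rose by 5.36 log2 units (SE 0.72, adjusted p = 0.0032) and Ccl5, a chemokine of effector T cells, by 9.88 (SE 1.66, adjusted p = 0.0035).

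Some marker lists of other cells moved with the members and others did not. The 12 monocyte and macrophage markers summed to 165 to 2066 CPM in cKO EAE, 3936 to 6652 in control EAE, 70.8 to 119 in cKO basal and 86.3 to 122.7 CPM in control basal. All 12 rose in control EAE, and 11 of 12 fell in cKO EAE against control EAE without cKO EAE 3 (0 with it by edgeR). That list holds Itgal, an integrin of T cells too, and had no marker at 0 in the EAE libraries except Arg1 in cKO EAE 3. The ratio of Cd3 to these markers was 0.00516, 0.00449 and 0.00205 in cKO EAE and 0.00263, 0.00399 and 0.00515 in control EAE (difference -0.06, exact p = 1, and 0.35 without cKO EAE 3, exact p = 0.4), so the groups overlapped. The part of these cells in the members' values was not tested.

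NK cells share Gzma, Gzmb, Prf1, Nkg7, Ifng, Eomes and Tbx21 with T cells. The 10 NK and innate lymphoid markers summed to 1.09 to 20.3 CPM in cKO EAE, 33.3 to 42.2 in control EAE, 0.174 to 1.55 in cKO basal and 0.276 to 0.331 CPM in control basal. Of these 10 markers 5 were tested and 4 rose in control EAE, and without cKO EAE 3 7 were tested and 4 fell in cKO EAE (0 of 5 with it by edgeR). Ncr1, the marker that defines NK cells, had 0, 5 and 0 counts in cKO EAE, 3, 3 and 7 in control EAE and 0 in every basal library. The part of NK cells in the effector values was not tested. The summed microglia markers were 246 to 1082 CPM in cKO EAE, 1215 to 1262 in control EAE, 153 to 239 in cKO basal and 225 to 240 CPM in control basal. The neuron markers summed to 3619 to 4984 CPM in cKO EAE and 1936 to 2508 CPM in control EAE, with no overlap.

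The neutrophil list did not follow the members between the genotypes. Its 10 markers summed to 155, 79.6 and 40.9 CPM in cKO EAE and 86.1, 113 and 116 in control EAE. They summed to 13.6, 137 and 4.83 in cKO basal 1, 2 and 3 and to 2.38 to 25.6 CPM in control basal. Of all libraries cKO EAE 1 had the highest sum. Of 9 tested 1 rose in control EAE with all libraries, and 0 were called between the EAE groups by edgeR with or without cKO EAE 3. Without cKO EAE 3 and cKO basal 2, 8 of 10 rose in control EAE (background 24.9%) and 10 of 10 in cKO EAE (background 10.8%). The dendritic cell markers summed to 53.5 to 146 CPM in cKO EAE, 167 to 202 in control EAE, 52.4 to 92.1 in cKO basal and 48.3 to 57.3 CPM in control basal. Of 8 tested 5 rose in control EAE, and 2 fell in cKO EAE without cKO EAE 3 (0 with it). The B and plasma cell markers summed to 63.8 to 92.8 CPM in cKO EAE, 107 to 143 in control EAE, 61.6 to 93.8 in cKO basal and 55.5 to 122 CPM in control basal. Of 7 tested 3 rose in control EAE, and 1 fell in cKO EAE without cKO EAE 3 (0 with it). The gamma delta T cell markers summed to 19.9 to 24.9 CPM in cKO EAE and 23.5 to 26.4 CPM in control EAE, so that these groups overlapped, and 0 were called between them with or without cKO EAE 3. Their sums were already 6.00 to 20.4 CPM in cKO basal and 15.9 to 20.3 CPM in control basal. In cKO EAE 3 the list had 327 counts, of which Trdc had 1, so other list genes carried that sum. Near-equal EAE sums thus do not show a like gamma delta T cell signal. Of the microglia markers 7 of 10 rose in control EAE and 0 were called between the EAE groups, with or without cKO EAE 3. The 8 mast cell and basophil markers summed to 26.3 to 39.2 CPM in cKO EAE and 33.5 to 35.3 CPM in control EAE, with 2 tested and 0 called, and Mcpt4, Cma1 and Fcer1a were at 0 in all 12 libraries. Of the 8 neuron markers 5 were higher in cKO EAE than in control EAE (6 without cKO EAE 3). Over all genes tested 1374 of 17914 were called in either direction (3336 of 18319 without cKO EAE 3). The 6 oligodendrocyte markers summed to 17878 to 24131 CPM in cKO EAE and 12376 to 16058 CPM in control EAE, with no overlap. Of these 0 were called with all 6 libraries and 4 were higher without cKO EAE 3. The part of these cells in the members' values was not tested.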

How the data were processed

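RNA of 12 mouse spinal cord libraries was analysed from raw read counts per gene, as deposited by the authors. Per the submitters' processing notes, HISAT2 2.0.5 (alignment), featureCounts 1.5.0-p3 (counting) and build mm10 were used. Whether strand was used in counting and how reads that fit several genes were handled are not given in the sources used here, and 14 members overlap another annotated gene, 9 of them on the opposite strand. Library totals ran from 15128913 to 17592105 counts, so that 1 count was worth at most 0.0910 CPM and low genes carry counting error.

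The counts were tested with edgeR 4.0.16 (quasi-likelihood F test, filterByExpr, TMM, R 4.3.3), Benjamini-Hochberg adjusted over all genes tested, with the SE taken as the log2 fold change over the square root of F. EAE responses and their difference came from 1 fit of 12 libraries, and genotypes were compared within the 6 EAE or 6 basal libraries. DESeq2 1.42.0, limma 3.58.1 (voom), other size factors, no filter, a replicate block, a 2-fold minimum and leaving out libraries were alternatives, and the tests were checked on simulated data. The replicate numbers did not pair the libraries. The members and lists were chosen with earlier results of these data known. All 34 members could be named, and up to 4 genes of each of the 5 further lists were named by smallest p in control EAE against control basal.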

Additional observations from a re-analysis of the deposited data

How the results depend on the processing

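In control mice the count of members called at EAE stayed within 1.5 times the reported 29 under every alternative that kept all control basal libraries, and leaving out 1 library gave 14 to 34. Genes called in either direction numbered 1724 of 19078 in the fit that gave 14 and 8166 of 19055 in the fit that gave 34. In cKO mice, where the reported count was 0, no filter gave 8, DESeq2 22, voom 22, leaving out 1 library 0 to 24, and dropping cKO EAE 3 together with cKO basal 2 (a choice made after seeing the data) 29. Genes called there in either direction numbered 493 of 34672 with no filter, 1239 of 18601 by DESeq2 and 3648 of 18601 by voom. They numbered 1075 of 19101 without cKO EAE 3, which gave 24, and 2715 of 18956 without both libraries. The difference between the responses was called for 0 members except by voom, which called 2 (and 2999 of 18601 genes tested). For cKO against control at EAE, where 1 was reported, no filter gave 2, DESeq2 8, voom 17, the fit of all 12 libraries 0 and leaving out 1 library 0 to 18. There DESeq2 and voom called 4131 and 5790 of 17914 genes in either direction. With no filter 1616 of 32378 genes were called, and without cKO EAE 3, which gave 18, 3336 of 18319. With the replicate number as a block the counts were 23 in control mice, 0 in cKO mice and 0 for cKO against control at EAE. In these fits 2509 of 18601, 5 of 18601 and 0 of 17914 genes tested were called in either direction. Same-numbered libraries deviated together in 4 of 18 pairs (r of -0.46 to 0.37, threshold 0.1), so the numbers name libraries only. At basal every alternative gave 0. Ratios that turned direction, in log2 units of cKO minus control, were Trdc over Trdc plus Trac (-0.38 to 0.79 when 1 library was left out, with -0.23 without cKO EAE replicate 2 and -0.38 without control EAE replicate 2), effectors over Cd3 (-0.14 to 0.43, with -0.14 without control EAE replicate 2) and Cd3 over monocyte markers (-0.32 to 0.35, with 0.35 without cKO EAE replicate 3 and 0.16 without control EAE replicate 3). The cause was not tested. Members with under 10 counts in a library are limited by depth.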
